A study of Danio rerio with 4 samples.

Results

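Prostaglandins are short-lived lipid signals made from arachidonic acid. Phospholipases free the fatty acid from membranes, cyclooxygenases turn it into the unstable intermediate prostaglandin H, and terminal synthases shape that intermediate into prostaglandin D, prostaglandin E, prostacyclin or thromboxane. In the mammalian gut these mediators act on blood flow, mucosal defence, ion secretion and inflammation, and the dehydrogenase encoded by hpgd starts their inactivation.

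The genes described here are ptgdsa (lipocalin-type prostaglandin D synthase), the cyclooxygenase genes ptgs1, ptgs2a and ptgs2b, the prostaglandin E synthase gene ptges, and hpgd. They were taken by name from a list of 6, and 5 of them matched the 14781 genes of the count table; hpgd did not match by name or synonym and was not analysed here. The gene ptgdsa was listed because it was higher in mutants, so its values in that comparison are a description and carry no test. The other 4 were listed for their place in the pathway. None of the 5 overlaps another gene of the table.

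The libraries are of oligo-dT selected RNA from dissected guts of adult zebrafish with the st95 allele of irf8, the gene of a transcription factor needed to form macrophages. The comparison sets 2 fish homozygous for the mutation (hom) against 2 heterozygous fish (het), asking which gut transcripts differ between them. The het fish carry a mutant copy too, so the mutants were not compared with wild type, and no fish was treated. The labels give neither sex nor batch.

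Library totals ranged from 6350840 to 10391963 counts. The targeted gene irf8 was at 3.70 and 2.31 CPM (the count relative to the library's total after TMM scaling) in hom guts, against 5.12 and 5.47 CPM in het guts. Both hom guts were lower, with a log2 fold change of -0.82 ± 0.58 (SE; edgeR adjusted p = 0.729), but this does not check the genotype labels, because a mutant allele can still be transcribed. The tissue label matched its markers, since all 10 enterocyte markers had counts in every library. Together they made up 3.34% and 4.03% of counts in hom guts and 3.72% and 2.20% in het guts. That speaks to the tissue only, since some of these markers differed between genotypes, as given further below. Het replicate 2 stood apart. Exocrine pancreas markers (12 genes) made up 3.68% and 0.383% of counts in hom guts, against 1.14% in het replicate 1 and 25.7% in het replicate 2, whose shares of liver and erythrocyte markers were the highest of the 4 libraries as well. Where leaving out this library moved a named eicosanoid gene's fold change by over 1.5 times or turned it round, both values are given. Fold changes of cell markers are given with all libraries only. In whole gut, fewer cells of a type and less RNA per cell cannot be told apart.

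The gene with the largest difference among the 5 was ptgdsa (chromosome 10, 10830483 to 10837753, plus strand, 6 exons, danRer10). In mammals the enzyme of this name converts prostaglandin H to prostaglandin D and, as a lipocalin, also carries small lipophilic molecules. The activity of the zebrafish product was not tested. Read pairs assigned to ptgdsa numbered 121 and 455 in hom guts, against 16 and 22 in het guts. These counts correspond to 17.9 and 42.0 CPM in hom guts and to 2.73 and 2.41 CPM in het guts. The hom fish were both above the het fish, and they differed from each other by more than the het fish did. The group means were 30.0 ± 17.0 CPM in hom guts and 2.57 ± 0.229 CPM in het guts (SD, n = 2 each). The fitted log2 fold change was 3.54 ± 0.57 (SE), which is 11.7-fold higher. Both hom libraries lay above both het libraries for 19.9% of the 9701 genes past the count filter (39.2% had no overlap in either direction), and nothing is read from ptgdsa being among them because it was chosen for this difference.

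The size of the ptgdsa difference depended on which hom fish was kept. Without hom replicate 2 the log2 fold change was 2.79 ± 0.61, and without hom replicate 1 it was 4.05 ± 0.53. Het replicate 2 had little bearing on it, with a log2 fold change of 3.44 ± 0.74 when that library was left out. In the authors' deposited table of 76 genes, ptgdsa has a log2 fold change of 3.38 and an FDR of 0.00328. The table does not name its groups, but its sign matched hom minus het for all 41 of its genes that could be matched by name. Those values come from the same fish and are no second measurement. Nothing is read from the FDR, because ptgdsa was chosen for this difference.

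**Figure D1:**
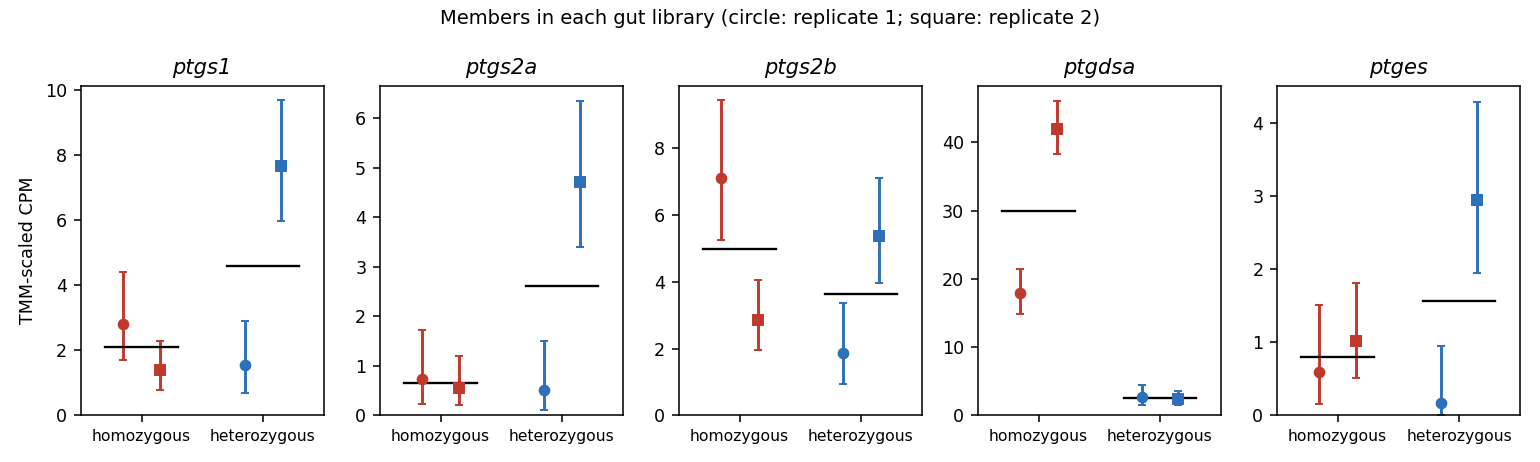
Level of the 5 genes in each library, as TMM-scaled CPM on axes that start at 0; points are libraries (red, homozygous; blue, heterozygous; circles, replicate 1; squares, replicate 2), vertical bars are exact 95% Poisson intervals of the count and black lines are group means. Both homozygous guts lie above both heterozygous guts for ptgdsa, while heterozygous replicate 2 is the highest library for ptgs1, ptgs2a and ptges.

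Zebrafish have further lipocalin-type prostaglandin D synthase genes, and they did not follow ptgdsa. The count table holds ptgdsb (chromosome 24, 16882894 to 16884916, minus strand) and, close beside it, zgc:153154 (16877094 to 16878973, minus strand), which RefSeq lists as a synonym of ptgdsb.2. Both were singled out after their values were seen, and reads common to such neighbouring copies can be lost or split, so their separate values are uncertain. There were 8 and 17 counts of ptgdsb in hom guts, against 0 and 595 in het guts. For zgc:153154 there were 3 and 4 counts in hom guts, against 5 and 154 in het guts. Nearly all reads of these copies therefore came from het replicate 2, and the other 3 libraries were low whatever their genotype.

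By edgeR's quasi-likelihood test ptgdsb had a log2 fold change of -4.54 ± 2.1 (SE; Benjamini-Hochberg adjusted p = 0.699). Without het replicate 2 the value was 6.45 ± 3.16, turned round because het replicate 1 had no reads. Without het replicate 1 it was -5.50 ± 0.49. That fit holds het replicate 2 as the lone het library, and the hom pair alone gives the spread. The filter on low counts removed zgc:153154. Without that filter its log2 fold change was -4.37 ± 1.19 (SE, edgeR adjusted p = 0.429). Without het replicate 1, again with the spread of the hom pair alone, it was -5.31 ± 0.74. The authors' deposited table lists zgc:153154 with a log2 fold change of -4.73 and an FDR of 0.0535.

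Divided by exon length, so that genes can be compared, the summed level of the 3 prostaglandin D synthase genes was 22.9 and 51.8 CPM per kilobase in hom guts, against 3.94 and 82.4 in het guts. Unlike ptgdsa alone, this sum overlapped between genotypes. By count, ptgdsa made up 91.7% of the reads of these genes in hom replicate 1 (exact Clopper-Pearson 95% interval 85.6 to 95.8) and 95.6% in hom replicate 2 (93.3 to 97.2). The share was 76.2% in het replicate 1 (52.8 to 91.8) and 2.85% in het replicate 2 (1.80 to 4.29). The low share in het replicate 2 came with a ptgdsa level that was like that of het replicate 1, at 2.86 against 3.25 CPM per kilobase.

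**Figure D2:**
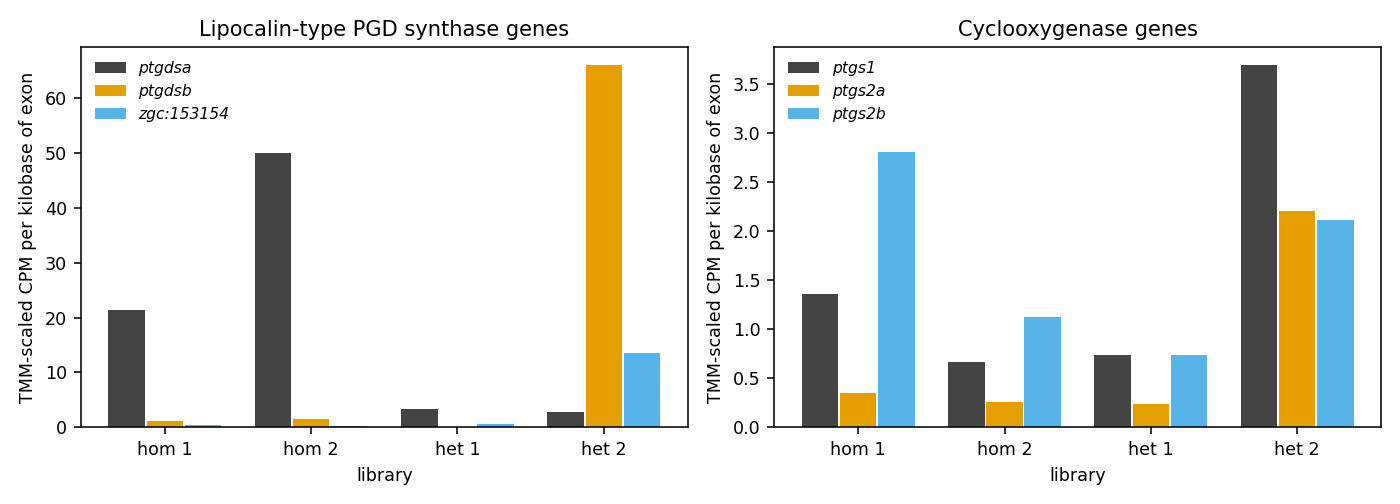
Level of each gene copy in each library, in TMM-scaled CPM per kilobase of exon, for the lipocalin-type prostaglandin D synthase genes (left) and the cyclooxygenase genes (right); bars are single libraries, with homozygous guts left of heterozygous guts. The tall ptgdsa bars are those of the homozygous guts (21.3 and 49.9), whereas the tall ptgdsb bar is that of heterozygous replicate 2 (66.0).

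Cyclooxygenases carry out the committed step of the pathway. In vertebrates ptgs1 is the constitutive form and ptgs2 the inducible one, which zebrafish carry as the copies ptgs2a and ptgs2b. None of the 3 genes separated the genotypes, and all were scarce. The counts of ptgs1 (chromosome 5, 64226204 to 64265270, plus strand, 11 exons) were 19 and 15 in hom guts, against 9 and 70 in het guts. On the CPM scale ptgs1 was at 2.81 and 1.38 in hom guts and at 1.54 and 7.66 in het guts. Only het replicate 2 was high, and the hom libraries lay on either side of het replicate 1.

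The log2 fold change of ptgs1 was -1.16 ± 0.94 (SE; edgeR adjusted p = 0.752). Leaving out het replicate 2 turned its sign, to 0.42 ± 1.23. The inducible copy ptgs2b (chromosome 20, 34218944 to 34224518, minus strand, 10 exons) had 48 and 31 counts in hom guts, against 11 and 49 in het guts, or 7.11 and 2.86 CPM against 1.88 and 5.36 CPM. The highest library was hom and the lowest het, and the ranges overlapped in part. Its log2 fold change was 0.44 ± 0.79 (SE; edgeR adjusted p = 0.899). The value was 1.38 without het replicate 2, and it ranged from -0.32 to 1.38 as each library was left out.

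The other inducible copy, ptgs2a (chromosome 2, 21258435 to 21265802, minus strand, 9 exons), did not pass the count filter. It had 5 and 6 counts in hom guts, against 3 and 43 in het guts. In CPM these are 0.740 and 0.554 in hom guts and 0.512 and 4.70 in het guts. Het replicate 2 again held most of the reads, and the other 3 libraries were alike. Fitted without the filter, the log2 fold change was -1.97 ± 1.21 (SE). The ratio of summed counts was 0.204 against both het libraries (95% counting interval 0.0952 to 0.400) and 1.22 against het replicate 1 alone (0.323 to 6.82). These intervals hold counting error only, not the spread between fish.

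Which cyclooxygenase gene was most abundant also differed between libraries. Of the reads of the 3 genes, ptgs2b took 66.7% in hom replicate 1 (95% interval 54.6 to 77.3) and 59.6% in hom replicate 2 (45.1 to 73.0), against 47.8% in het replicate 1 (26.8 to 69.4) and 30.2% in het replicate 2 (23.3 to 37.9). The share was higher in both hom guts, but the interval of het replicate 1 spans both hom values. An exact permutation test on 2 against 2 libraries cannot give a two-sided p below 0.333, so that test can call no difference in share, and no other test was run. The summed level of the 3 genes per length was 4.51 and 2.06 CPM per kilobase in hom guts, against 1.72 and 8.01 in het guts.

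The microsomal prostaglandin E synthase gene ptges (chromosome 5, 32739609 to 32747831, plus strand, 3 exons) acts after the cyclooxygenases and makes prostaglandin E. It too was under the count filter, with 4 and 11 counts in hom guts, against 1 and 27 in het guts. Its levels were 0.592 and 1.02 CPM in hom guts and 0.171 and 2.95 CPM in het guts, so the lowest and the highest library were both het. The log2 fold change fitted without the filter was -0.91 ± 1.33 (SE). The ratio of summed counts was 0.457 against both het libraries (counting interval 0.227 to 0.885) and 5.0 against het replicate 1 alone, which had a single read pair (0.769 to 210).

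Over the 5 genes, 3 passed the count filter and 0 of these were called by edgeR's quasi-likelihood test at an adjusted p of 0.05, where 0% of all 9701 tested genes were called. At an unadjusted p under 0.05 the test gave 628 genes (6.47%). DESeq2's Wald test called 55 of the 10783 genes to which it gave an adjusted p (0.51%), with 29 higher (0.269%) and 26 lower (0.241%) in hom guts, and of the 5 genes ptgdsa alone was among them, from which nothing is read since it was chosen for this difference. Het replicate 2 was the highest library for 3 of the 5 genes, and for 33.8% of all genes with counts. Among the genes tested that library was highest for 26.9%, and 1 of the 3 tested members was among these.

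**Figure D3:**
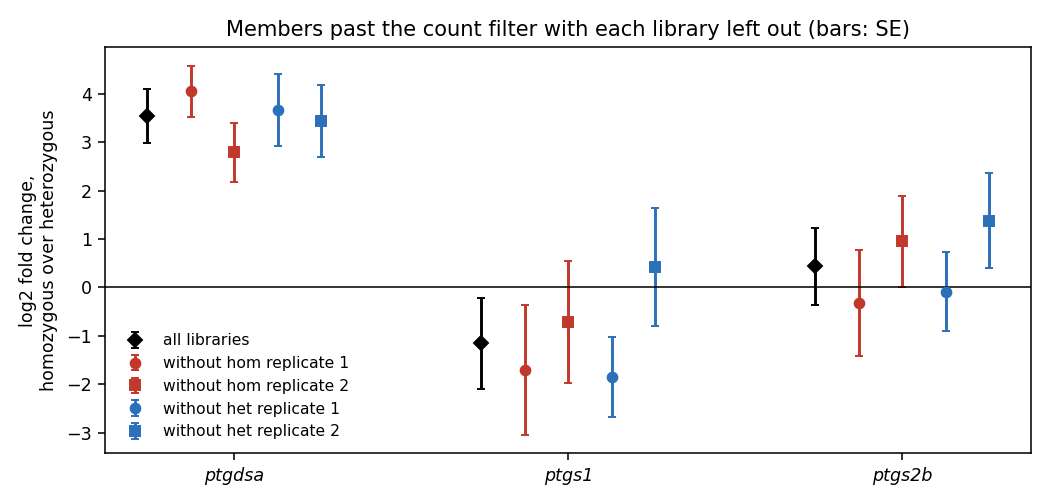
Log2 fold change, homozygous over heterozygous, of the 3 members past the count filter with all libraries (black diamonds) and with each library left out (red, a homozygous library; blue, a heterozygous library; circles, replicate 1; squares, replicate 2); bars are SE. The values of ptgdsa stay between 2.79 and 4.05, while those of ptgs1 and ptgs2b lie on both sides of 0.

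Ranked by level per length, ptgdsa was the most abundant of the 5 in hom guts by a wide margin, at 35.6 ± 20.2 CPM per kilobase (SD, n = 2). It was followed by ptgs2b at 1.97 ± 1.19, ptgs1 at 1.01 ± 0.487, ptges at 0.814 ± 0.303 and ptgs2a at 0.303 ± 0.0618. The ranges over the hom libraries overlapped between ptgs2b and ptgs1 and between ptgs1 and ptges, but ptgs2a lay below ptges and ptgdsa above ptgs2b in both. In het guts ptgdsa averaged 3.05 ± 0.273 CPM per kilobase and the other 4 genes between 1.22 and 2.21, with ranges that all overlapped that of ptgdsa except for ptgs2a and ptgs2b. The level of ptgdsa per length was 7.59 times that of ptgs2b in hom replicate 1 and 44.2 times in hom replicate 2, against 4.38 times in het replicate 1 and 1.35 times in het replicate 2. Since ptgdsa was chosen for its rise in mutants, its rank and ratios in hom guts are a description only.

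The wider eicosanoid pathway was read from a list of 73 further genes, of which 49 were found in the count table and 29 passed the filter. Of the 29, 15 were higher and 14 lower in hom guts, where 46.7% of all tested genes were higher, with a median log2 fold change of 0.02, against -0.05 over all genes tested. By edgeR 0 were called in either direction. The libraries did not overlap for 5 with hom above and 3 with hom below, where 19.9% and 19.3% of all tested genes did so, so neither share was above the background.

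Among the other prostanoid synthases the genes of highest level were ptges3a, ptges3b, fam213b and tbxas1. The thromboxane synthase gene tbxas1 was at 27.8 and 45.9 CPM in hom guts, against 11.3 and 12.7 CPM in het guts. Both hom fish were above both het fish, as for ptgdsa, and hom replicate 2 was again the highest. The log2 fold change was 1.62 ± 0.40 (SE; edgeR adjusted p = 0.699), and it stayed between 1.21 and 1.96 with each library left out. The cytosolic prostaglandin E synthase genes ptges3a and ptges3b, whose products also serve as Hsp90 co-chaperones, had log2 fold changes of -0.69 ± 0.50 and -0.62 ± 0.38, and that of ptges3a was -1.19 without het replicate 2. The prostamide and prostaglandin F synthase gene fam213b, the older symbol of prxl2b, was at 0.30 ± 0.41, and at -0.013 without het replicate 2.

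Of 10 prostanoid receptor genes found, 3 were at 0 in all libraries and only ptger4b passed the filter. It encodes a receptor of the EP4 type, which answers prostaglandin E by raising cyclic AMP in mammals. Its counts were 77 and 191 in hom guts, against 2 and 37 in het guts, or 11.4 and 17.6 CPM against 0.341 and 4.05 CPM. The hom libraries were both higher, and the het libraries differed widely. The log2 fold change was 2.67 ± 0.98 (SE; edgeR adjusted p = 0.699). It was 1.88 ± 0.62 without het replicate 1 and 5.34 ± 0.85 without het replicate 2, so its size rests on 1 low het library while its direction did not change. The receptor genes ptger2a, ptger2b and ptger4c had at most 9 counts in any library.

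For the release of arachidonic acid, 4 of 7 tested genes were higher and 3 lower. The most abundant gene of this list was pla2g12b, which was listed by its phospholipase name. Whether its product frees arachidonic acid was not tested. The gene was at 613 and 1249 CPM in hom guts and 695 and 234 CPM in het guts, and its genotypes overlapped (log2 fold change 1.0 ± 0.75, SE). Het replicate 2 was its lowest library, and without it the value was 0.41 ± 0.67. The calcium-independent phospholipase gene pla2g6 was at 14.2 and 22.7 CPM in hom guts, against 8.71 and 11.8 CPM in het guts, without overlap (0.85 ± 0.43). The phospholipase genes pla2g12a and zgc:123275, a synonym of pla2g3 in RefSeq, were at 0.17 ± 0.54 (-0.11 without het replicate 2) and 0.62 ± 0.76 (1.22 without it). For breakdown and transport, 4 of 8 tested genes were higher and 4 lower. The most abundant were the aldehyde reductase genes akr1a1a (0.18 ± 0.53) and akr1a1b (-0.28 ± 0.41), the efflux pump gene abcc4 (-0.10 ± 0.61) and the prostaglandin reductase gene ptgr1 (-0.93 ± 0.56). Without het replicate 2 these were -0.26 for akr1a1a, 0.094 for akr1a1b, 0.91 for abcc4 and -1.50 for ptgr1.

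**Figure D4:**
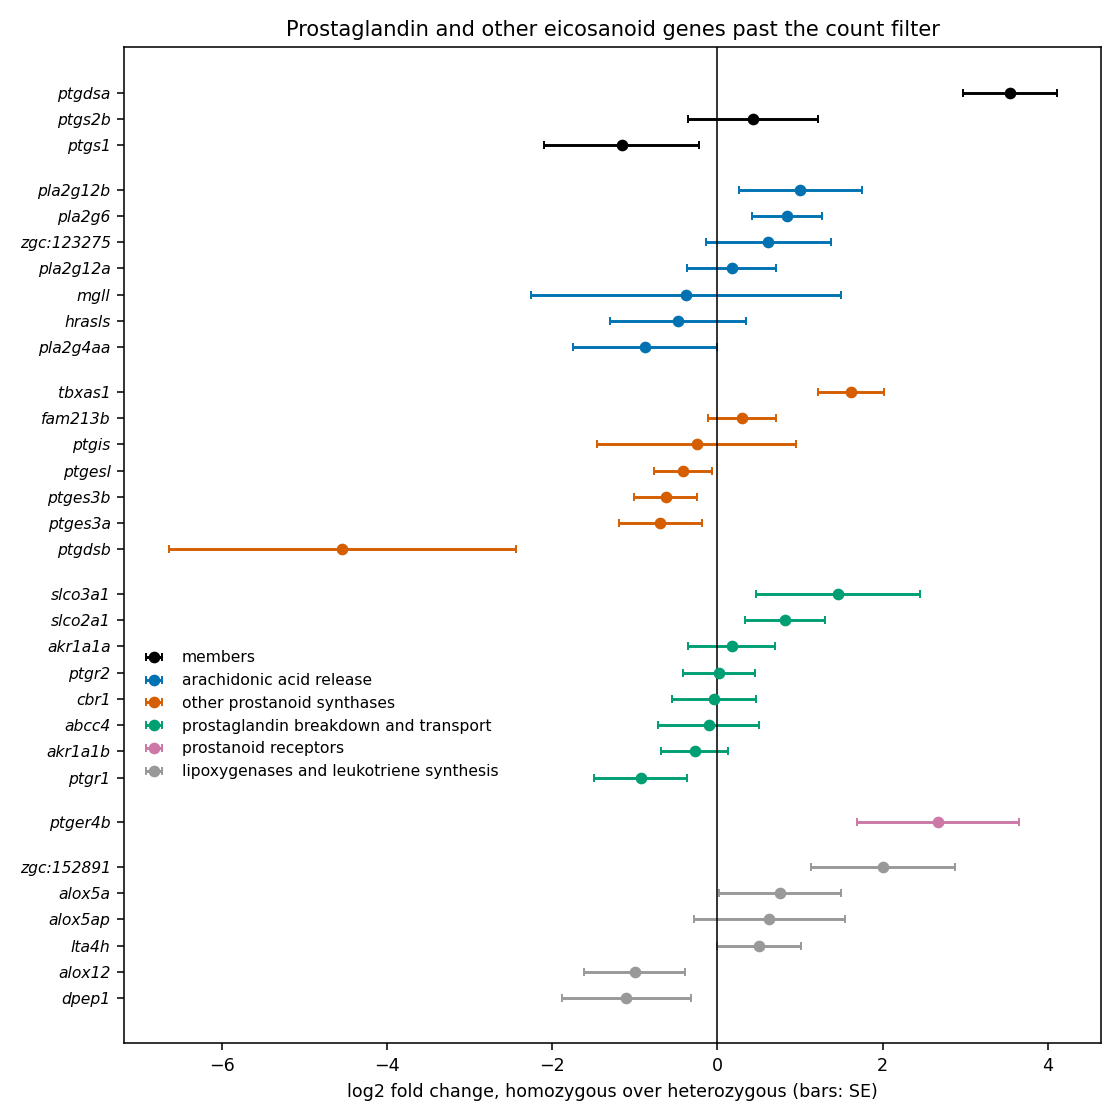
Log2 fold change, homozygous over heterozygous, with SE bars, of the 3 members (black) and the 29 further eicosanoid genes past the count filter, grouped and coloured by role. Of the 29, 15 lie right of 0 and 14 left of it, and ptgdsa and ptger4b are the farthest to the right.

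Markers of other cells were set beside ptgdsa. As background, 19.9% of all tested genes had both hom libraries above both het libraries and 19.3% had them below. Of 8 T and NK lymphocyte markers, 7 were higher in both hom guts than in both het guts, and the list made up 0.0126% and 0.00608% of counts in hom guts against 0.000882% and 0.00189% in het guts. That list was higher in hom replicate 1 than in hom replicate 2, as were, among other lists, the neutrophil and the stress lists. For ptgdsa, and for the enterocyte, macrophage, liver and endocrine pancreas lists, hom replicate 2 was the higher. Within the enterocyte and macrophage lists the most abundant markers, fabp2 and mpeg1.1, went the other way. The source of the ptgdsa reads was not tested. Of 10 tissue handling and stress genes found, 8 had hom above het and 2 had hom below (hspa5 and fosb). The list was at 0.142% and 0.0844% of counts in hom guts, against 0.0517% and 0.0691% in het guts. Its most abundant gene was hspa5. Without it, the other 9 genes summed to 1193 and 629 CPM in hom guts, against 217 and 221 CPM in het guts. Tuft cell markers had 2 of 6 with hom above (pou2f3 and trpm5), at 0.00291% and 0.00297% in hom guts and 0.00183% and 0.00168% in het guts, and gnb3a was at 0 in all libraries.

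Neutrophil markers had 2 of 6 with hom above (mmp13a and ncf1). Most of that list's level was ncf1, and the other 5 genes summed to 38.9 and 11.9 CPM in hom guts, against 3.59 and 14.8 CPM in het guts, which overlap. None of 4 eosinophil and mast cell markers separated the genotypes. The level of that list was nearly all cpa5, which like the exocrine pancreas markers was highest in het replicate 2, and the other 3 genes summed to 10.5 and 20.9 CPM in hom guts, against 9.73 and 29.9 CPM in het guts. Of the enterocyte markers, 5 of 10 had hom above and 1 had hom below. Those above, with their log2 fold changes and SE, were slc6a19a.1 (2.24 ± 0.46), slc15a1b (2.08 ± 0.57), cdx1b (1.98 ± 0.63), mep1b (1.80 ± 0.50) and chia.1 (0.64 ± 0.82). The 1 below was fabp6 (-2.21 ± 0.84). Macrophage markers had 5 of 6 with hom below, at 0.00163% and 0.00220% of counts against 0.00227% and 0.00387% in het guts. That share was mostly mpeg1.1 (8.14 and 7.47 CPM against 8.19 and 15.1 CPM) and mfap4, which overlapped. Other markers differed more. Counts in hom against het guts were 0 and 1 against 12 and 41 for c1qa, and 2 and 4 against 26 and 65 for c1qc. They were 5 and 7 against 15 and 73 for c1qb, and 1 and 3 against 10 and 14 for csf1ra. All 6 endocrine pancreas markers had hom below, and the insulin gene ins was at 0 and 0 CPM in hom guts, against 15.2 and 769 CPM in het guts. Goblet and enteroendocrine markers had 3 of 4 with hom below (agr2, ghrl and gcga, the last also an endocrine pancreas marker) and penka with hom above. Stroma and endothelium markers had 4 of 8 with hom below (col1a1a, col1a2, pdgfra and pecam1). The collagen difference was mostly that of het replicate 2, with col1a1a at 59.4 and 36.8 CPM in hom guts, against 65.9 and 322 CPM in het guts. The endothelial genes kdrl and cdh5 overlapped between genotypes and were also highest in het replicate 2, at 44.6 and 11.7 CPM. The muscle genes acta2 and myh11a overlapped too and were highest in hom replicate 1. Gonad markers were low and, like the liver markers, highest in het replicate 2. They summed to 1.78 and 1.66 CPM in hom guts, against 0.853 and 7.77 CPM in het guts. The gonad gene gsdf was at 3.72 CPM in het replicate 2, and 3 of 8 (zp2.1, ddx4 and sycp3) were at 0 in all libraries. Beside the reads of ptgs1, ptgs2a, ptges, ptgdsb and zgc:153154 in het replicate 2, liver markers made up 0.0270% and 0.105% of counts in hom guts, against 0.0104% in het replicate 1 and 0.390% in het replicate 2. Erythrocyte markers made up 0.00855% and 0.00550% of counts in hom guts, against 0.00168% in het replicate 1 and 0.0491% in het replicate 2. The part of these cells in the differences was not tested.

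The genes whose levels over the 4 libraries were most like those of ptgdsa were found by the root mean square difference of log2 CPM, each gene centred on its own mean, over the other 9700 tested genes. They were casp8l1, a caspase-8-like gene, at 0.38 log2 units, the circadian gene per3 at 0.42, cthl at 0.43, the serotonin transporter gene slc6a4a at 0.53, and slc44a5b of the choline transporter-like family at 0.56. The closest, casp8l1, was at 8.44 and 9.87 CPM in hom guts, against 1.02 and 0.656 CPM in het guts. Since they were picked for likeness to a gene chosen for its difference, these values are a description. The nearest gene on each side of ptgdsa on chromosome 10, outside the naming rule and given for its position, overlapped between genotypes. So did 5898 of the 9701 tested genes. The fatty acid transport gene slc27a4 was at 25.9 and 83.6 CPM in hom guts, against 30.7 and 18.4 CPM in het guts. Its log2 fold change was 1.16 ± 0.63 (SE), and hom replicate 2 was its highest library, as for ptgdsa. On the other side, ambp, which is also on the liver marker list, was at 5.33 and 18.2 CPM in hom guts, against 9.73 and 79.0 CPM in het guts.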

How the data were processed

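Counts of read pairs per gene were made by the authors with featureCounts 1.5.2 over exons, paired and with strand setting 2, on the UCSC annotation of danRer10, per the file headers; no aligner is stated there. Gene lengths are those of the deposited files. DESeq2 and R 3.3.1 are listed, with no role, in the submitters' processing notes. The authors' deposited table of 76 genes gives log2 fold changes, p-values with FDR, and a maximum group mean, a score with no stated unit that was not used. Here, genes were filtered with filterByExpr (minimum count 10, minimum total 15), scaled by TMM and tested by quasi-likelihood in edgeR (version 4.0.16 under R 4.3.3), genotype the only term and Benjamini-Hochberg adjustment at 0.05; the script was tested on simulated data. SEs are those implied by the F statistic. P-values set the difference between genotypes against the spread between fish of the same genotype, with 2 fish in each. Intervals and counts near 0 cover counting error only (PCR copies were not told apart); the limit behind a 0 is 3 counts, or 0.277 to 0.512 CPM. Of 75 eicosanoid names, 40 matched by name, 9 by RefSeq synonym (GRCz12tu, names only), 2 repeated another and 24 did not match. Genes named by rule are the members, the 4 of highest mean CPM in each role, the 5 most like ptgdsa, and irf8. Of the others, ptgdsb and zgc:153154 were chosen after their values were seen, and the neighbours of ptgdsa for their position. Single markers were named from their lists with their values known. The members, gene lists and markers were chosen with earlier results of these data known. Alternatives were DESeq2's size factors, pancreas markers left out, other filters, DESeq2's Wald test (DESeq2 1.42.0), a replicate block, each library left out, an adjusted p of 0.1, and TPM per gene.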

Additional observations from a re-analysis of the deposited data

How the results depend on the processing

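With DESeq2's Wald test 55 genes were called in place of 0, and with each library left out between 0 and 45, the 45 arising without het replicate 1 (1 higher and 44 lower). The log2 fold change of ptgdsa lay between 3.44 and 3.58 under the 7 other alternatives, and between 2.79 and 4.05 with each library left out. Of those 7, the adjusted p of 0.1 reuses the main fit and cannot move a fold change. Of the eicosanoid genes, 12 were higher and 20 lower without hom replicate 2, and 20 higher and 16 lower without het replicate 1. With no filter or with DESeq2, 20 were higher and 24 lower of 44, so the balance turned as low genes entered, and with the replicate block 18 were higher and 11 lower. The ratio of ptgdsa to ptgs2b per length in hom guts was 18.1, and 20.0 on the TPM scale. With each library left out, these log2 fold changes took both signs: ptgs1 (-1.85 to 0.42), ptgs2b (-0.32 to 1.38), ptgdsb (-5.50 to 6.45), ptges3a (-1.19 to 0.10), fam213b (-0.013 to 0.71), ptgr1 (-1.50 to 0.029), abcc4 (-0.66 to 0.91), akr1a1a (-0.26 to 0.82), akr1a1b (-0.54 to 0.094), pla2g12a (-0.60 to 0.70), zgc:123275 (-0.74 to 1.32) and alox5a (-0.24 to 1.35). Others kept their sign but moved by over 1.5 times: alox12 (-1.48 to -0.20), dpep1 (-2.58 to -0.36), lta4h (0.18 to 0.90), pla2g12b (0.39 to 2.03), pla2g6 (0.46 to 1.17), ptges3b (-0.91 to -0.24), ptger4b (1.88 to 5.34) and irf8 (-1.17 to -0.52). So did ptges (-1.80 to -0.61 in the 3 such fits that kept it, against -0.91 with all libraries and no filter). The causes were not tested. The count filter removed ptgs2a, ptges and zgc:153154 with all libraries and again without het replicate 2, so neither fit gave them a value. With the replicate number as a block 0 genes were called, the log2 fold change of ptgdsa was 3.44 and that of abcc4 turned to 0.056. The numbers give no pairing: deviations of same-numbered libraries correlated across genes at 0.0643, and there are only 2 pairs. Counts of at most 11 in 3 of the 4 libraries limit ptgs2a and ptges.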

Other observations

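The leukotriene branch, which lipoxygenases open from the same fatty acid, was sparse at its receptors. Of 6 tested genes of lipoxygenases and leukotriene synthesis, 4 were higher and 2 lower in hom guts, and edgeR called 0. The leukotriene A4 hydrolase gene lta4h was at 314 and 465 CPM in hom guts, against 337 and 214 CPM in het guts (log2 fold change 0.50 ± 0.51, SE, and 0.20 without het replicate 2). The dipeptidase gene dpep1, whose product trims leukotriene D4, was at 44.3 and 202 CPM in hom guts, against 198 and 331 CPM in het guts (-1.10 ± 0.78, and -0.69 without het replicate 2). The lipoxygenase gene alox12 had a log2 fold change of -1.0 ± 0.61, which was -0.20 ± 0.66 without het replicate 2, its highest library. The gene alox5a, which starts leukotriene synthesis, had a log2 fold change of 0.76 ± 0.74. All 4 leukotriene receptor genes found (ltb4r, ltb4r2a, ltb4r2b and cysltr1) were under the count filter, with at most 21 counts in any library.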
